A study of Mus musculus with 18 samples.

Results

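The 40 genes described here are expressed by the endothelium of blood vessels, and they were followed through RNA sequencing of 18 B16F10 mouse melanomas in which 50600 genes were counted. They were listed by name, as markers and regulators of endothelial cells, and the list was partly chosen by the measured levels of Sox17 and Fgd5, which were low after 1 dose of free CDN2 (20 µg) against PBS. That comparison is therefore given below as a description, with no test. All 40 genes passed the filter on low counts, as did 16927 genes in all. By role they fall into 9 growth factor receptors and their partners, 7 ligands and other secreted proteins, 4 transcription factors, 9 junction and adhesion proteins, 5 signalling proteins and 6 other surface proteins.

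Endothelial cells line the vessel wall and are held together by VE-cadherin (Cdh5), PECAM1, claudin-5 (Cldn5) and related junction proteins. VEGF receptors (Kdr, Flt1, Flt4) and TIE receptors (Tek, Tie1) control their growth and survival, the NOTCH ligand DLL4 restrains sprouting, and SOX17, SOX18, SOX7 and ERG are transcription factors of endothelial identity. STING senses cyclic dinucleotides in the cytosol and induces interferon, and endothelial cells are among the cells known to carry it.

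Whole tumors were collected 24 h after the last intratumoral (IT) injection, in 9 groups of 2 tumors. All mice were young female C57BL/6 mice with B16F10 cells, a melanoma line, implanted under the skin of the right flank. After 1 dose there was a group for PBS, for unloaded extracellular vesicles (EVs), for exoCDN2 at 0.1 µg and for free CDN2 at 20 µg and at 100 µg, the last amount standing in the sample titles alone. After 2 doses given 3 days apart the groups were PBS, exoCDN2 (0.1 µg), CDN2 (20 µg) and a further CDN2 group whose labels give no amount. CDN2 is the cyclic dinucleotide STING agonist labelled CL656, and exoCDN2 is the same agonist loaded into EVs of HEK293 cells, a human embryonic kidney line, that carry high PTGFRN, a membrane glycoprotein of EVs. Each tumor stands for 1 mouse, and the labels tie no same-numbered tumors to a shared litter, day or cage.

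Depth ran from 21608895 to 65983630 expected counts per tumor. The lowest was that of replicate 1 of CDN2 (20 µg) after 2 doses, and the next lowest was 38671428. Levels are in CPM, counts brought to a common library size that was scaled by the trimmed mean of M values, and p-values are from the quasi-likelihood F test of edgeR, with Benjamini and Hochberg's adjustment over all genes tested. A gene was called where the adjusted p was under 0.05 and the ratio over 2. The 2 tumors given 2 doses of CDN2 (20 µg) stood apart from each other, with a correlation of 0.960 across genes where every other pair had 0.986 to 0.997, and with 8 of the 40 genes over 2-fold apart. Counts of called genes that rest on this pair are therefore given with either tumor left out. The share of all genes called with a tumor left out is not given, so these counts show only how far the calls depend on 1 tumor. Melanocyte genes were abundant in every tumor, at a summed 9893 to 33594 CPM, and the summed level of the 40 endothelial genes was 459 to 762 CPM. The endothelial markers Pecam1, Cdh5, Tie1 and Emcn were counted in all 18 tumors. In bulk tumor RNA, fewer endothelial cells and less RNA per endothelial cell cannot be told apart.

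The promoters of 4 members are shown as examples. Cldn5 and Clec14a, a claudin and a C-type lectin of the endothelial surface, were among the genes with low levels after 1 dose of exoCDN2. Egfl7 was higher in 1 agonist group after 2 doses, under the 2-fold limit against PBS. Emcn, which encodes endomucin, was chosen for holding the most motif matches. Each promoter covers 250 bases before to 50 bases after a start from RefSeq, on GRCm38.p6, 5′ to 3′ on the gene's strand, with motif matches in capitals.
Cldn5, chr16:18776597-18776896, plus strand: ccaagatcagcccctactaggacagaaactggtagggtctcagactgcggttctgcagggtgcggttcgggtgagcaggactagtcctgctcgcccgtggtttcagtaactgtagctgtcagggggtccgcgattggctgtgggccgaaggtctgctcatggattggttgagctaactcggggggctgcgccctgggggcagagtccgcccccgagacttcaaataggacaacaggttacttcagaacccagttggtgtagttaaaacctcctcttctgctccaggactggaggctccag
Clec14a, chr12:58269209-58269508, minus strand: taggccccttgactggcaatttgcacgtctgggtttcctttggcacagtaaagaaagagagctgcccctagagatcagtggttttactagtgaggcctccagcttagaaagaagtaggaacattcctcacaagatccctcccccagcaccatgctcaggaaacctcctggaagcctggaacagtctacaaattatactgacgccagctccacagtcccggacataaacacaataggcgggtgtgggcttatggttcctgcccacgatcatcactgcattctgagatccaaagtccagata
Egfl7, chr2:26583615-26583914, plus strand: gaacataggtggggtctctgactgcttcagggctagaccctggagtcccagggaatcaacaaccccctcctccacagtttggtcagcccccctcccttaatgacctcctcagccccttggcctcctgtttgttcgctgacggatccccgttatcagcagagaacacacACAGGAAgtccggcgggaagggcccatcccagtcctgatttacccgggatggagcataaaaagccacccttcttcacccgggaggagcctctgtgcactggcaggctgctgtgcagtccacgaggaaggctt
Emcn, chr3:137340828-137341127, plus strand: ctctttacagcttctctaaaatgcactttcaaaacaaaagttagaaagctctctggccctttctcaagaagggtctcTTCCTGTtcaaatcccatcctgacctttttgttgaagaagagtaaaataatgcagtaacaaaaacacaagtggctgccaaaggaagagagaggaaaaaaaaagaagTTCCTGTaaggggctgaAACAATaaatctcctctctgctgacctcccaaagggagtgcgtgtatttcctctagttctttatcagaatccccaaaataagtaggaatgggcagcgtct
The set of RefSeq promoters available here held 23 of the 40 genes, with 28 starts. Both strands were searched for an ETS motif (CCGGAAG), a SOX motif (AACAAT) and the core of the composite FOX:ETS motif (ACAGGAA), and no matches overlapped. The FOX:ETS core was found in 8 of 28 promoters (28.6%), of Tie1, Adgrf5, Emcn, Egfl7, Rasip1, Esm1 and Notch4, against 8.67% of 32851 promoters of the same length. The SOX motif was found in 3 of 28 (10.7%), of Tek, Erg and Emcn, against 10.7% of all, and the ETS motif in 0 of 28, against 8.86% of all. Emcn holds the FOX:ETS core at -173 and -67 and the SOX motif at -50 from the start, and Egfl7 the core at -82. In the Cldn5 and Clec14a windows none of these 3 sets of letters is present. The members with no promoter shown or searched are Pecam1, Cdh5, Sox17, Sox18, Sox7, Esam, Plvap, Ptprb, Mmrn2, Nos3, Vwf, Ecscr, Aplnr, Ramp2, Gpihbp1, Icam2 and Angpt2.

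Levels of different genes were compared per kilobase of exon, as the mean over the 4 PBS tumors. Eng, the TGF-beta co-receptor endoglin, had the highest level at 54.5 CPM per kb. Plvap, of endothelial diaphragms, followed at 14.6 and Angpt2, a ligand of TIE2, at 9.72 CPM per kb. Endoglin is also made by macrophages and stromal cells, so its level is not that of endothelium alone. Apln (6.24), Cdh5 (6.20), Egfl7 (5.94) and Esm1 (5.88 CPM per kb) lay close together, and their order was within the spread of the tumors. Sox17 was the lowest at 0.164 CPM per kb, below Sox7 at 0.292 and Cyyr1 at 0.311. Among the SOX factors Sox18 was the most abundant, at 3.44 CPM per kb.

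After 1 dose of free CDN2 (20 µg), the comparison that chose members, nearly the whole list was low. Both tumors lay below both PBS tumors for 38 of 40 genes (29.5% of all genes did so), Ramp2 overlapped and Eng lay above (28.6% of all genes did so), and because the list was partly chosen here nothing is read from these shares. The median log2 difference was -1.34, against -0.0035 over all genes. Sox17 (ENSMUSG00000025902, chr1:4490931-4497354, minus strand) had 1 and 0 counts where the PBS tumors had 30 and 44. Fgd5 (ENSMUSG00000034037, chr6:91978878-92076004, plus strand), an exchange factor of endothelial cells, was at 0.397 and 0.416 CPM against 2.56 and 2.38 CPM. These were the values the choice rested on, and both pairs were wide apart.

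The rest of the list was low to different degrees in these tumors. Pecam1 was at 11.3 and 13.6 CPM against 29.2 and 32.5 CPM in PBS, and Cdh5 at 10.7 and 10.3 against 26.5 and 25.95 CPM. Kdr, the main VEGF receptor, was at 4.41 and 3.38 against 17.3 and 17.0 CPM. Both general markers and the receptor were thus low in each tumor, the receptor by more. Apln, which encodes the peptide apelin, was at 3.57 and 2.58 CPM against 27.5 and 18.9 CPM. Sox18 was at 0.397 and 0.111 CPM against 4.24 and 5.82 CPM. Eng was the exception, at 273 and 270.0 CPM against 221 and 210.0 CPM. By role, the median log2 difference was -1.07 for the 9 receptors, -1.09 for the 7 secreted proteins, -2.96 for the 4 transcription factors, -1.32 for the 9 junction proteins, -1.05 for the 5 signalling proteins and -1.52 for the 6 other surface proteins. For 28 of the 40 genes the lowest of all 18 tumors was in this group. Nothing is read from that number, as these tumors partly chose the list and the share over all genes was not counted. Mural cell genes, which mark pericytes and smooth muscle, were also low, at a summed 102 to 135 CPM against 175 to 194 CPM in PBS, and their part in these values was not tested.

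**Figure D1:**
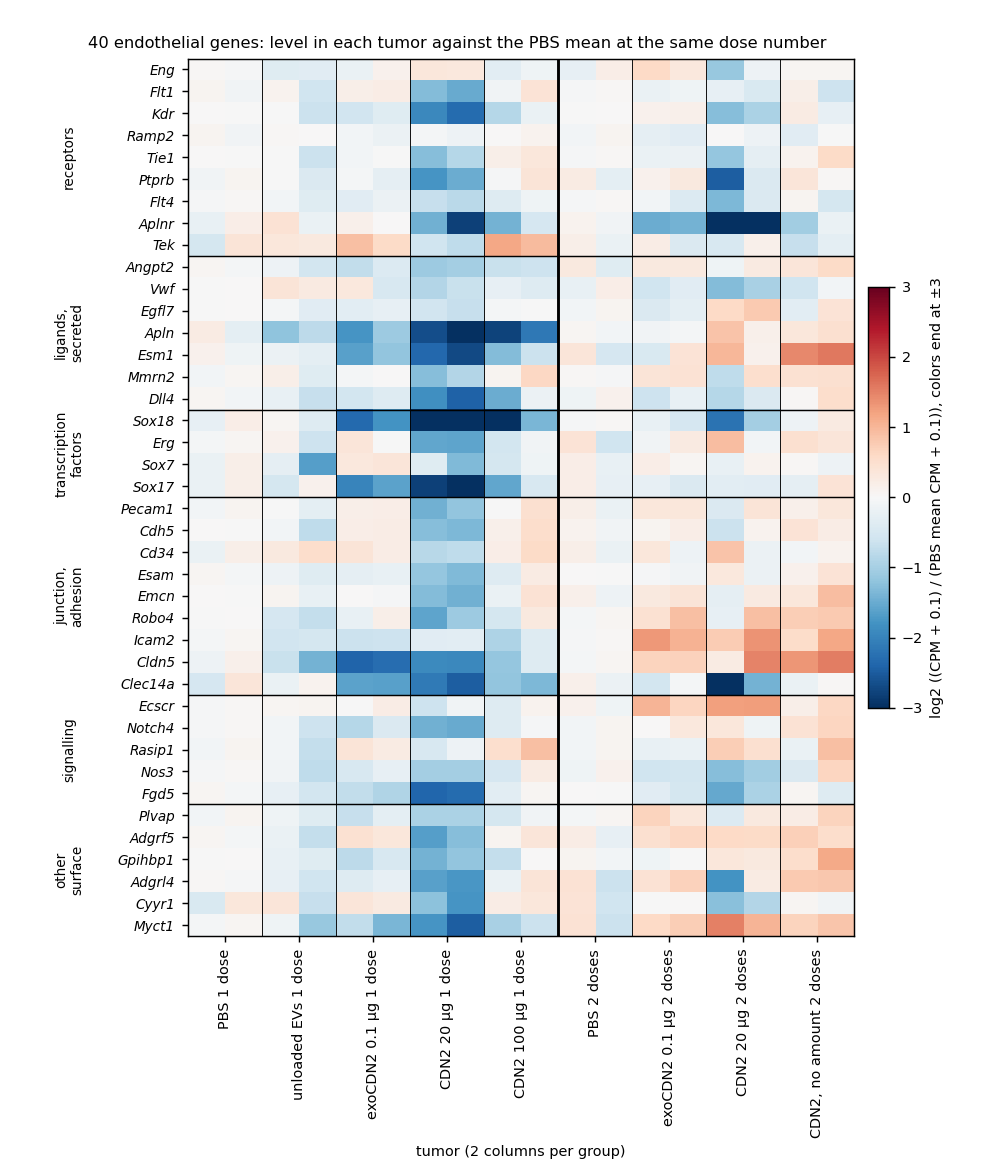
Level of each of the 40 endothelial genes (rows) in each of the 18 tumors (columns), as the log2 ratio of CPM to the mean of the PBS tumors with the same number of doses (0.1 CPM added to both). The columns of CDN2 (20 µg) after 1 dose are low in almost every row, whereas after 2 doses the rows go in both directions.

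Smaller log2 differences there were those of Nos3, the endothelial nitric oxide synthase, at -1.05, of Vwf, the clotting protein von Willebrand factor, at -0.78, and of Egfl7, a secreted vascular protein, at -0.64. The other agonist groups after 1 dose did not have these levels, although their doses differ and the values only stand side by side. Both CDN2 (100 µg) tumors lay above both CDN2 (20 µg) tumors for 35 of 40 genes (30.2% of all genes) and below them for Eng and Icam2 (28.9% of all genes). Both exoCDN2 tumors lay above both CDN2 (20 µg) tumors for 36 of 40 genes (30.9% of all genes) and below them for Cldn5, Eng and Icam2 (29.9% of all genes). The CDN2 (20 µg) tumors are those whose low values partly chose the list, so nothing is read from these counts either. Pecam1, for example, was at 30.4 and 42.7 CPM after CDN2 (100 µg) and at 34.9 and 35.2 CPM after exoCDN2.

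ExoCDN2 against unloaded EVs after 1 dose asks what the loaded agonist adds to the vesicle, with tumors that had no part in the choice of the genes. No member was called in either direction, against 2.52% of all genes called higher and 0.425% called lower. An unadjusted p under 0.05 was reached by 9 of the 40, and over all genes by 7.71% that were higher and 6.95% lower. DESeq2, the other tool run, called 690 genes, of which 4 were members, all lower: Sox17, Sox18, Cldn5 and Clec14a. The median log2 difference of the 40 genes was -0.03, against -0.04 over all genes, and 19 of 40 differences were positive, against 45.4% of all. Both tumors were above both EV tumors for 9 genes and below for 9, where 27.1% and 32.4% of all genes were so.

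The 4 genes that DESeq2 called had the largest negative differences here. Sox18 was at 0.912 and 1.38 CPM after exoCDN2 and at 5.23 and 3.85 CPM after unloaded EVs, a log2 difference of -1.99 ± 0.59 (SE, n = 2 per group, edgeR adjusted p = 0.10). Sox17 was at 0.119 and 0.184 CPM against 0.497 and 0.850 CPM, from 6 and 8 counts against 23 and 34 (-2.14 ± 0.56, edgeR adjusted p = 0.064). The groups did not overlap for either gene, and neither passed the test. Clec14a (ENSMUSG00000045930, chr12:58264720-58269290), chosen after its values were seen, was at 0.535 and 0.529 CPM against 1.599 and 1.97 CPM (-1.74 ± 0.52, edgeR adjusted p = 0.10). Cldn5 (ENSMUSG00000041378, chr16:18776847-18778262) was at 0.436 and 0.483 CPM against 1.66 and 0.950 CPM (-1.51 ± 0.44, edgeR adjusted p = 0.10). Both exoCDN2 tumors were below the lower EV tumor for each of these, with the EV pair itself well apart for Cldn5. By DESeq2 the adjusted p was 0.036 for Sox17, 0.016 for Sox18, 0.045 for Cldn5 and 0.027 for Clec14a.

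The general markers Pecam1 and Cdh5 had higher means in the same exoCDN2 tumors than in the EV tumors. Pecam1 was at 34.9 and 35.2 CPM against 30.5 and 24.97 CPM, a log2 difference of 0.34 with a 95% interval of -0.20 to 0.88. Cdh5, also chosen after its values were seen, was at 30.1 and 30.5 CPM against 24.8 and 15.3 CPM, a difference of 0.59 with an interval of 0.05 to 1.14 (edgeR adjusted p = 0.29). Neither marker passed the test. Other abundant members had lower means with exoCDN2, with Kdr at 12.4 against 13.9 CPM, Plvap at 22.6 against 26.5, Vwf at 29.7 against 37.8 and Angpt2 at 29.8 against 34.5 CPM, and none of these passed either. Sox7, of the same family as Sox17 and Sox18, was at 1.27 and 1.31 CPM against 0.799 and 0.2499 CPM (1.28 ± 0.50, edgeR adjusted p = 0.24). Adgrf5, an adhesion receptor, was at 24.0 and 22.0 CPM against 15.2 and 10.5 CPM (0.84 ± 0.22, edgeR adjusted p = 0.058).

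**Figure D2:**
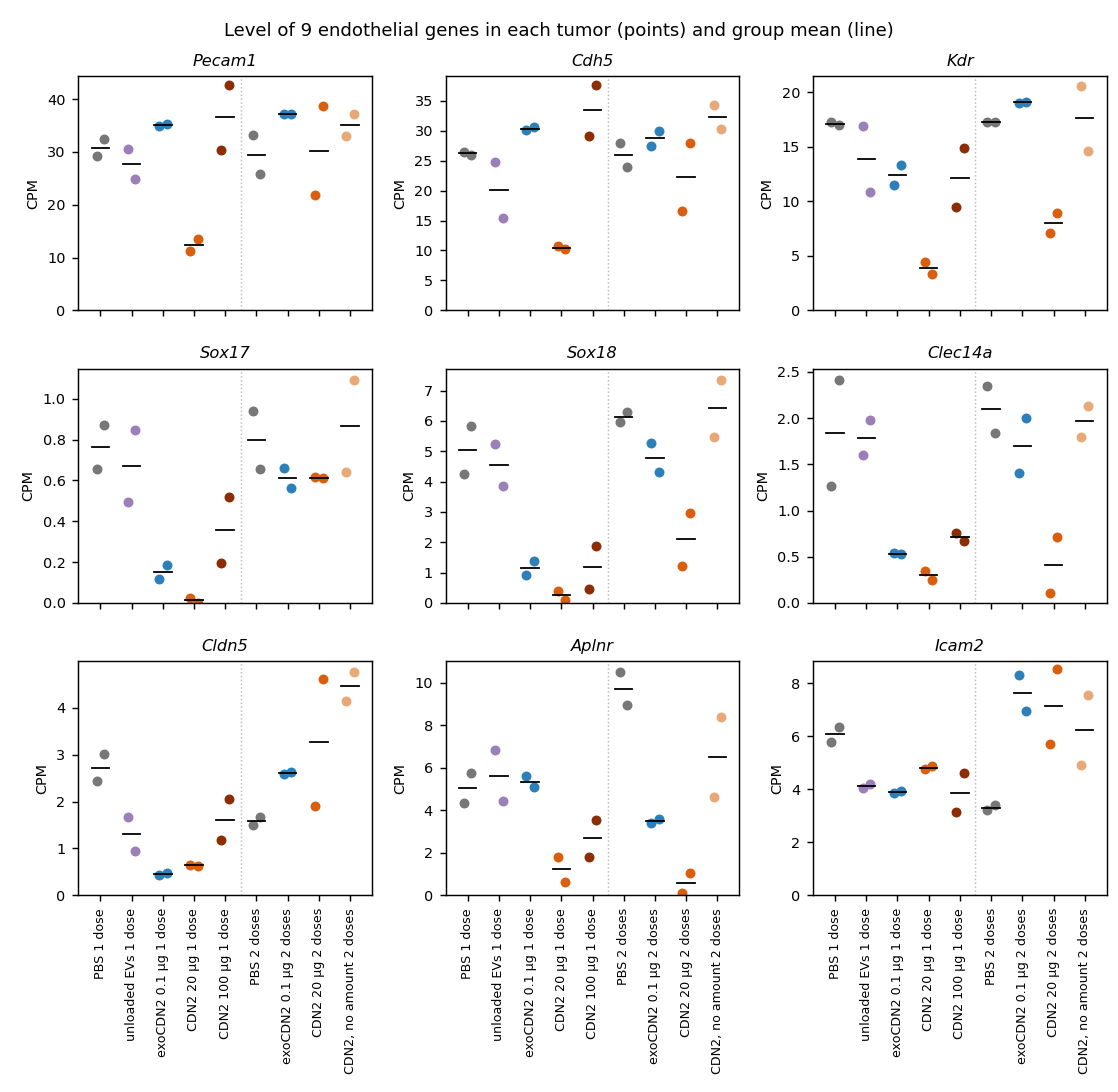
CPM of 9 endothelial genes in each tumor, by group, with a short line at the mean of the 2 tumors and each axis starting at 0. Pecam1 and Cdh5 were lowest after 1 dose of CDN2 (20 µg), Sox17, Sox18, Cldn5 and Clec14a were also low after 1 dose of exoCDN2, and Aplnr was lowest after 2 doses of CDN2 (20 µg).

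The comparisons with PBS after 1 dose share their 2 control tumors with one another and with the comparison that chose the genes, so their values are not independent of it, and Sox17 and Fgd5 get no test in them. After exoCDN2, 2 of the 38 genes with a test were called lower, with 0.425% of all genes called lower and 2.2% higher. They were Cldn5 (-2.56 ± 0.44, edgeR adjusted p = 0.0069) and Apln (-1.41 ± 0.33, edgeR adjusted p = 0.036), and 0 were higher. Cldn5 was at 2.43 and 3.01 CPM and Apln at 27.5 and 18.9 CPM in the PBS tumors, with Apln, chosen after its values were seen, at 6.68 and 10.8 CPM after exoCDN2. The groups were apart for both genes. The median over the 40 genes was -0.20, against -0.02 over all genes. Of the 40, 21 had both tumors below both controls (36.4% of all genes) and 8 above (31.7%). Leaving out either exoCDN2 tumor left 0 calls, and leaving out the PBS tumors in turn left 1 and 0.

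Unloaded EVs against PBS gave 0 calls among these 38 genes and 0% of all genes called. An unadjusted p under 0.05 was reached by 3 members, and over all genes by 1.37% that were higher and 1.82% lower. DESeq2 called 0 members, and 31 genes in all. Of the 40 differences 34 were negative (49.6% of all genes), and the median was -0.25 against 0.00 over all genes. Both EV tumors were below both PBS tumors for 24 of 40 genes (23.5% of all genes) and above for 3 (20.4%). These PBS tumors also served the comparison that chose the list, and the 40 include Sox17 and Fgd5, so nothing is read from these shares. Apln was at 10.03 and 13.5 CPM in the EV tumors, -0.98 ± 0.32 from PBS with an edgeR adjusted p of 1.0, and Cldn5 -1.05 ± 0.41 with the same adjusted p. In both genes the mean of the EV tumors lay between the means of PBS and exoCDN2.

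CDN2 (100 µg) gave 1 call among the 38, with 0.62% of all genes called lower and 1.82% higher. Apln was at 3.30 and 5.19 CPM, a log2 difference of -2.45 ± 0.34 from PBS (edgeR adjusted p = 0.0024). Sox18, at 0.464 and 1.88 CPM, had -2.10 ± 0.59 (edgeR adjusted p = 0.09), and Clec14a, at 0.757 and 0.668 CPM, -1.37 ± 0.51 (edgeR adjusted p = 0.21). Apln was clearly apart from PBS, while the Sox18 tumors differed among themselves. Pecam1 had 0.25 with a 95% interval of -0.29 to 0.79, and Cdh5, at 29.2 and 37.7 CPM, 0.35 with an interval of -0.19 to 0.90. The median over the members was -0.16, and against unloaded EVs in place of PBS it was 0.13. Both tumors were below both PBS tumors for 17 genes (34.2% of all genes) and above for 7 (33%). Between the PBS tumors themselves, 2 doses against 1, 0 of the 38 genes were called, against 0.0473% of all genes higher and 1.05% lower. An unadjusted p under 0.05 was reached by 5 members, and over all genes by 3.32% that were higher and 7.12% lower. The later PBS tumors were both above the earlier ones for 9 genes (22.2% of all genes) and both below for 12 (22.9%). Esm1, a secreted proteoglycan of sprouting vessels, had the lowest value there, at 7.45 and 4.01 CPM after 2 doses against 20.7 and 17.2 CPM after 1 (-1.72 ± 0.40, edgeR adjusted p = 0.07).

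Free CDN2 (20 µg) against PBS after 2 doses, in tumors that were not used to choose the genes, gave calls in both directions. Lower were 7 of 40 (10.6% of all genes were) and higher were 4 of 40 (20% of all genes were). The receptors Aplnr and Kdr, the blood protein Vwf, and Fgd5, Clec14a, Nos3 and Sox18 were lower, and Ecscr, Icam2, Myct1 and Cldn5 were higher. The median difference was -0.02, against 0 over all genes, and 19 of 40 differences were positive. Both agonist tumors were above both PBS tumors for 9 genes (34.2% of all genes) and below for 14 (31.3%).

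Aplnr (ENSMUSG00000044338, chr2:85136225-85139923, plus strand), the apelin receptor, had the lowest value. It was at 0.112 and 1.03 CPM after CDN2 and at 10.5 and 8.98 CPM after PBS, a log2 difference of -3.90 ± 0.65 (edgeR adjusted p = 6.1e-04). The 0.112 CPM came from 2 counts in replicate 1, the tumor of lowest depth. Its ligand Apln was at 29.4 and 17.9 CPM against 16.9 and 15.3 CPM, 0.56 with a 95% interval of -0.14 to 1.25. The receptor and its ligand thus lay on opposite sides of PBS, the ligand without passing the test. Kdr was at 7.12 and 8.92 CPM against 17.2 and 17.3 CPM (-1.10 ± 0.25, edgeR adjusted p = 0.004). Vwf was at 12.1 and 15.1 CPM against 25.6 and 34.0 CPM (-1.12 ± 0.24, edgeR adjusted p = 0.0028). Fgd5 was at 0.953 and 1.49 CPM against 2.96 and 2.93 CPM (-1.24 ± 0.28, edgeR adjusted p = 0.0035). In each of these genes both agonist tumors were below both PBS tumors.

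Clec14a was at 0.112 and 0.716 CPM against 2.35 and 1.84 CPM (-2.17 ± 0.55, edgeR adjusted p = 0.0066), and Sox18 at 1.23 and 2.97 CPM against 5.96 and 6.28 CPM (-1.497 ± 0.58, edgeR adjusted p = 0.047). Nos3 was at 1.68 and 1.99 CPM against 3.82 and 4.55 CPM (-1.17 ± 0.30, edgeR adjusted p = 0.0077). Replicate 1 of CDN2, the tumor of lowest depth, was the lower tumor for all 3, and its Clec14a value came from 2 counts. Sox17, by contrast, was at 0.617 and 0.610 CPM against 0.939 and 0.657 CPM, -0.38 with an interval of -1.495 to 0.74, both tumors just below the lower PBS tumor. No test was made of the difference between these 2 genes.

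The higher genes were membrane proteins. Ecscr, a surface regulator of endothelial migration, was at 16.6 and 17.1 CPM against 7.72 and 6.39 CPM (1.26 ± 0.23, edgeR adjusted p = 0.001). Icam2 (ENSMUSG00000001029, chr11:106377656-106388075, minus strand), an adhesion molecule that leukocytes and platelets also carry, was at 5.72 and 8.54 CPM against 3.20 and 3.42 CPM (1.12 ± 0.24, edgeR adjusted p = 0.0027). Both genes were apart from PBS in both tumors. Myct1 was at 3.76 and 2.63 CPM against 1.73 and 0.766 CPM (1.34 ± 0.47, edgeR adjusted p = 0.032), and Cldn5 at 1.91 and 4.62 CPM against 1.51 and 1.66 CPM (1.07 ± 0.41, edgeR adjusted p = 0.048). Egfl7, at 35.8 and 40.9 CPM against 22.3 and 25.1 CPM, had an edgeR adjusted p of 0.0021 with a difference of 0.70, under the 2-fold limit. Pecam1, at 21.8 and 38.6 CPM against 33.2 and 25.8 CPM, had 0.04 with an interval of -0.499 to 0.59, and Cdh5, at 16.7 and 27.99 CPM against 27.9 and 24.0 CPM, -0.20 with an interval of -0.75 to 0.34. For both markers the agonist tumors overlapped PBS and differed from each other by more than the PBS tumors did.

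These counts rested on which of the 2 agonist tumors was kept. Nothing more is read from the counts that follow, as the share of all genes called in those fits is not given. Without replicate 1, 3 genes were lower (Nos3, Clec14a and Aplnr) and 3 higher, and without replicate 2, 12 were lower and 2 higher. Other cell types' genes moved with the group: skeletal muscle genes summed to 2051 to 3831 CPM against 186 to 322 CPM in PBS, mural genes to 791 to 1265 against 176 to 194 CPM, neutrophil genes to 219 to 961 against 1.62 to 2.39 CPM, platelet genes to 34.3 to 98.3 against 5.25 to 7.08 CPM, and melanocyte genes to 9893 to 18458 against 30680 to 32989 CPM. Their part in the endothelial values was not tested.

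ExoCDN2 against PBS after 2 doses gave 1 call among the 40, Icam2, with 8.87% of all genes called higher and 2.48% lower. It was at 8.32 and 6.95 CPM against 3.20 and 3.42 CPM, a log2 difference of 1.20 ± 0.24 (edgeR adjusted p = 0.0048). Ecscr followed at 14.4 and 11.1 CPM against 7.72 and 6.39 CPM (0.85, edgeR adjusted p = 0.022), under the 2-fold limit. Both genes were above PBS in both tumors, as they were after CDN2 (20 µg), a comparison with the same PBS tumors. Aplnr was at 3.41 and 3.58 CPM against 10.5 and 8.98 CPM, -1.48 ± 0.56 (edgeR adjusted p = 0.09), and DESeq2 called it. The median over the members was 0.07, against 0.01 over all genes. Both exoCDN2 tumors were above both PBS tumors for 13 genes (30.3% of all genes) and below for 13 (29.3%). Sox18, at 5.26 and 4.31 CPM, Kdr, at 19.03 and 19.1 CPM, and Pecam1, at 37.1 and 37.2 CPM, had intervals of -1.55 to 0.84, -0.39 to 0.68 and -0.21 to 0.87. The Icam2 call was lost without replicate 1 of exoCDN2 and with the PBS tumors of both dose numbers pooled, since Icam2 was at 5.80 and 6.34 CPM in PBS after 1 dose.

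Between exoCDN2 (0.1 µg) and CDN2 (20 µg) after 2 doses, which differ in amount as well as in carrier, 5 of 40 genes were higher with exoCDN2 (7.34% of all genes) and 1 lower (12% of all genes). Receptors made up 4 of the 5. Kdr differed by 1.24 ± 0.25 (edgeR adjusted p = 0.0048), Aplnr by 2.42 ± 0.63 (edgeR adjusted p = 0.014), Eng by 1.02 ± 0.26 (edgeR adjusted p = 0.011) and the phosphatase Ptprb by 1.30 ± 0.46 (edgeR adjusted p = 0.042). Eng was at 341 and 283 CPM with exoCDN2 and at 103 and 202 CPM with CDN2, and it was called neither by DESeq2 nor with RLE size factors. Clec14a, at 1.40 and 2.00 CPM with exoCDN2, differed by 1.87 ± 0.54 (edgeR adjusted p = 0.02), and Egfl7, at 17.6 and 19.4 CPM, was lower by -1.06 ± 0.14 (edgeR adjusted p = 0.0013). For Kdr, Aplnr, Eng, Ptprb, Clec14a and Egfl7 the tumors of the 2 groups did not overlap. The median over the members was 0.21, against 0.03 over all genes, and over the 9 receptors 0.56. Groups were apart with exoCDN2 above for 17 genes (34.6% of all genes) and below for 7 (30.9%). Without CDN2 replicate 1 the count higher was 1, and without replicate 2 it was 12. The share of all genes called in those fits is not given, so these counts show only that the calls moved with the tumor kept. A fit of only these 2 groups called 0 genes higher and 0 lower.

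**Figure D3:**
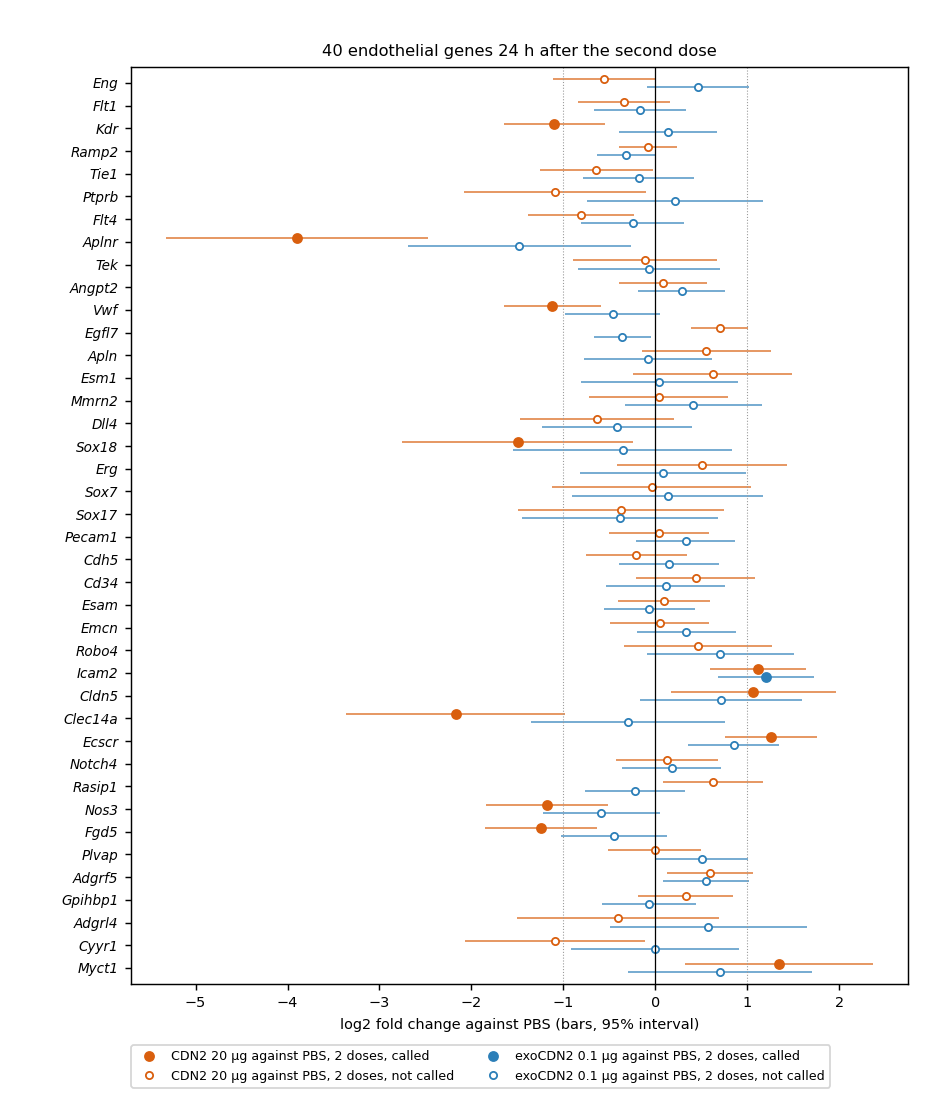
Log2 difference from PBS after 2 doses, with its 95% interval, for each of the 40 genes, in CDN2 (20 µg) and in exoCDN2, with filled points for called genes. Called genes lie on both sides for CDN2 (7 lower, 4 higher), and Icam2 is the 1 called for exoCDN2.

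The tumors given exoCDN2 were compared after 2 doses and after 1, in samples apart from the choice of the genes. Called higher after 2 doses were 3 of 40 genes, with 5.1% of all genes called higher and 2.34% lower. Cldn5 was at 2.59 and 2.62 CPM against 0.436 and 0.483 CPM (2.498 ± 0.44, edgeR adjusted p = 0.0054). Sox17 was at 0.662 and 0.564 CPM against 0.119 and 0.184 CPM (2.00 ± 0.56, edgeR adjusted p = 0.037), and Sox18 at 5.26 and 4.31 CPM against 0.912 and 1.38 CPM (2.06 ± 0.59, edgeR adjusted p = 0.04). Both later tumors were above both earlier ones for each gene. Clec14a had 1.68 ± 0.52 (edgeR adjusted p = 0.055), and Pecam1 had 0.09 with an interval of -0.45 to 0.62. Among the 40, both 2-dose tumors were above both 1-dose tumors for 21 genes (37% of all genes) and below for 8 (33.9%), with a median of 0.23 against 0.03 over all genes. Of the 4 endothelial transcription factors, Sox17 and Sox18 were called, and Sox7 and Erg were not. Leaving out either tumor of the 1-dose group left 0 of the 3 calls, and leaving out replicate 1 of the 2-dose group left Cldn5. These are different mice, and each dose number has its own day of collection, which cannot be told apart from the dose.

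Set against PBS of the same dose number, the exoCDN2 effect differed between 2 doses and 1 for Cldn5 (3.27 ± 0.60, edgeR adjusted p = 0.0069) and Icam2 (1.84 ± 0.34, edgeR adjusted p = 0.0069). These were 2 of the 38 genes with a test, with 5.12% of all genes called higher in this test and 1.7% lower. The PBS tumors of this test are in part those of the comparison that chose the list. PBS itself moved the other way in both genes, Cldn5 from 2.43 and 3.01 CPM to 1.51 and 1.66 CPM and Icam2 from 5.80 and 6.34 CPM to 3.20 and 3.42 CPM.

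The group given 2 doses of CDN2 with no amount in its labels had 0 of 40 calls against PBS, with 0.918% of all genes higher and 0.0409% lower. An unadjusted p under 0.05 was reached by 8 members, and over all genes by 7.16% that were higher and 3.28% lower. DESeq2 called Cldn5 and Esm1 higher. Cldn5 was at 4.13 and 4.77 CPM against 1.51 and 1.66 CPM (1.49 ± 0.40, edgeR adjusted p = 0.12), and Esm1 at 15.8 and 17.3 CPM against 7.45 and 4.01 CPM (1.53 ± 0.38, edgeR adjusted p = 0.088). The groups were apart for both. The median over the members was 0.30, against 0.01 over all genes, 30 of 40 differences were positive (51.4% of all genes), and both tumors were above both PBS tumors for 18 of 40 (15% of all genes) and below for 2 (15.6%). Highest of all 18 tumors in 16 of the 40 genes was a tumor of this group. The share over all genes was not counted, so nothing is read from that number. Interferon genes summed to 709 to 737 CPM there, against 147 to 211 CPM in PBS and 6755 to 7551 CPM after 2 doses of CDN2 (20 µg). In PBS after 1 dose they summed to 801 to 805 CPM, above the level of this group.

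The members not given singly spread as follows, from the lowest to the highest of the 18 tumors. Among receptors, Flt1 ran from 6.51 to 24.95 CPM, Flt4 from 3.53 to 9.66, Tek from 0.831 to 3.39 and Tie1 from 3.69 to 14.5 CPM, while Ramp2, a partner of the adrenomedullin receptor, ran only from 10.6 to 14.2 CPM. Among secreted proteins and ligands, Angpt2 ran from 20.5 to 45.9 CPM, Dll4 from 1.03 to 8.28 and Mmrn2 from 2.80 to 10.7 CPM. Among junction and adhesion genes, Cd34 ran from 8.80 to 36.6 CPM, Emcn from 2.30 to 13.4, Esam from 2.91 to 11.1 and Robo4 from 1.98 to 8.38 CPM. Of the signalling genes, Rasip1 ran from 2.35 to 7.75 CPM and the receptor Notch4 from 2.77 to 10.8 CPM. Among other surface proteins, Plvap ran from 16.2 to 42.9 CPM, Gpihbp1, which carries lipoprotein lipase, from 2.80 to 13.3, Adgrl4 from 1.35 to 8.71 and Cyyr1 from 0.803 to 3.85 CPM, and the transcription factor Erg from 0.997 to 4.37 CPM. Ramp2 had the narrowest range of the list, and none of the genes in this paragraph was called in the main comparisons. With unloaded EVs in place of PBS as the control, Rasip1 was called higher for CDN2 (100 µg) (1.10 ± 0.25, edgeR adjusted p = 0.038), where 1.88% of all genes were called higher and 0.449% lower. Fits with 1 tumor left out called some of the others, Flt4, Tie1 and Adgrl4 among them.

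Angpt2 and Plvap, the most abundant of their roles, had their lowest levels after 1 dose of CDN2 (20 µg). Angpt2 was at 20.5 and 21.5 CPM there against 45.9 and 41.9 CPM in PBS, and at 26.4 and 33.1 CPM after exoCDN2, 27.4 and 28.7 CPM after CDN2 (100 µg) and 39.2 and 29.7 CPM after unloaded EVs. After 2 doses it was at 33.9 and 21.7 CPM in PBS, 34.1 and 33.9 CPM with exoCDN2 and 25.3 and 33.5 CPM with CDN2 (20 µg). Plvap was at 16.2 and 16.4 CPM after 1 dose of CDN2 (20 µg) against 29.6 and 33.3 CPM in PBS, and after 2 doses at 25.7 and 27.7 CPM in PBS, 42.3 and 33.7 CPM with exoCDN2 and 20.1 and 32.7 CPM with CDN2 (20 µg). After 2 doses both agonist groups overlapped PBS for Angpt2, and for Plvap CDN2 overlapped PBS while exoCDN2 lay above it.

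Vessel genes outside the 40 were followed in lists. Adhesion molecules that activated endothelium displays to leukocytes rose after 1 dose of exoCDN2 against unloaded EVs in 4 of the 4 genes tested of 6 listed, where 2.52% of all genes tested were higher, with a median log2 difference of 2.99. Of these, 3 would pass the filter on low counts in the PBS and EV tumors alone, and all 3 rose, while Sele passed through the agonist tumors. E-selectin (Sele) was at 2.12 to 3.81 CPM against 0.04998 to 0.324 CPM (3.93 ± 0.67, edgeR adjusted p = 0.0059). P-selectin (Selp) was at 7.499 to 18.7 CPM against 0.550 to 2.66 CPM (3.01 ± 0.63, edgeR adjusted p = 0.02). Icam1 rose by 2.45 ± 0.49 (edgeR adjusted p = 0.016) and Vcam1 by 2.97 ± 0.58 (edgeR adjusted p = 0.014). ICAM1, VCAM1 and P-selectin are also made by other cells, including platelets for P-selectin, whereas E-selectin is largely endothelial. In the same libraries 0 of the 40 genes were called, and Sox17, Sox18, Cldn5 and Clec14a had the low values above. With PBS after 1 dose as the control, Sele (4.66), Selp (4.20) and Icam1 (2.36) were called higher for exoCDN2 and Vcam1 was not, where 2.2% of all genes were higher. For CDN2 (100 µg) against PBS, Selp (2.66) was the only one of this list called, where 1.82% of all genes were higher.

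After 2 doses, Icam1 and Vcam1 rose against PBS both with CDN2 (20 µg), by 4.44 and 5.05 on the log2 scale, and with exoCDN2, by 2.66 and 2.64 (2 of 4 in each), where 20% and 8.87% of all genes were higher. Without either of the CDN2 (20 µg) tumors both still rose with CDN2. Within exoCDN2, Sele and Selp were lower after 2 doses than after 1, with differences of -3.22 (edgeR adjusted p = 0.0078) and -3.14 (edgeR adjusted p = 0.0094). Sele passed the filter on low counts through the agonist tumors, so nothing is read from its fall. Selp was lower after 2 doses in the tumors where Sox17 and Sox18 were higher. Those SOX calls were lost without either tumor of the 1-dose group, and Sox7 and Erg were not called.

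**Figure D4:**
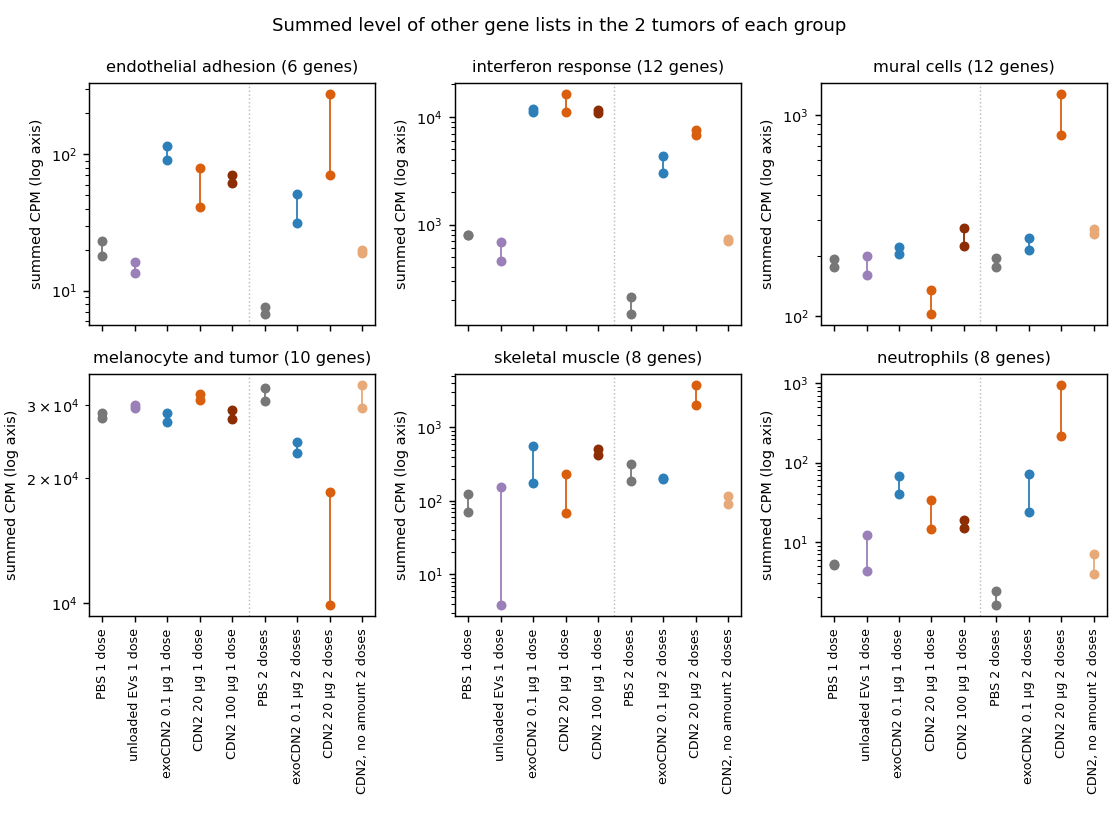
Summed CPM (log axis) of 6 gene lists in each tumor, by group: endothelial adhesion, interferon, mural, melanocyte, skeletal muscle and neutrophil genes. Endothelial adhesion and interferon genes are high in all agonist groups with a labelled amount, and mural, skeletal muscle and neutrophil genes are highest after 2 doses of CDN2 (20 µg).

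Angiogenic ligands and receptor partners, 29 genes tested, had 1 call each way after 1 dose of exoCDN2 against unloaded EVs, where 2.52% of all genes were higher and 0.425% lower: S1pr1, the sphingosine-1-phosphate receptor, rose by 1.12 ± 0.25 (edgeR adjusted p = 0.027), and Heyl, a NOTCH target, was lower at -2.78 ± 0.52 (edgeR adjusted p = 0.01). After 2 doses of CDN2 (20 µg) against PBS, 11 of 29 rose and 4 fell, where 20% of all genes were higher and 10.6% lower. Without replicate 1 of CDN2 9 rose and 4 fell, and without replicate 2 13 rose and 5 fell. Placental growth factor (Pgf) rose by 4.31 ± 0.56 and the angiogenesis inhibitor Thbs1 by 4.59 ± 0.60 (edgeR adjusted p = 1.5e-04 for each), and adrenomedullin (Adm) by 3.05 ± 0.44 (edgeR adjusted p = 2.5e-04). Among those lower were the VEGF co-receptor Nrp1 at -1.22 (edgeR adjusted p = 0.016) and the ephrin receptor Ephb4 at -1.08 (edgeR adjusted p = 0.0088). Pgf, Thbs1 and Adm were called without either tumor, and Nrp1 and Ephb4 were not called without replicate 1. With exoCDN2, 5 of 29 rose (8.87% of all genes were higher and 2.48% lower), among them Angpt1, the activating ligand of TIE2, by 3.26 (edgeR adjusted p = 0.0016), and Heyl was the 1 lower, at -1.72 (edgeR adjusted p = 0.019).

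Of 43 other endothelial genes tested, 1 rose and 1 fell after 1 dose of exoCDN2 against unloaded EVs, where 2.52% of all genes were higher and 0.425% lower. They were the transcription factor Foxf1 (2.70 ± 0.40, edgeR adjusted p = 0.0024) and Exoc3l2 (-2.20 ± 0.54, edgeR adjusted p = 0.046). After 2 doses of CDN2 (20 µg) against PBS, 14 rose and 9 fell, where 20% of all genes were higher and 10.6% lower. With exoCDN2 against PBS, 6 rose and 2 fell, where 8.87% of all genes were higher and 2.48% lower. For CDN2 these counts were 9 and 5 without replicate 1, where Cav2 and Ets1 were not called, and 16 and 9 without replicate 2. Tal1 (-1.80), Cav2 (-1.11) and Ets1 (-1.13) were among those lower with CDN2, and thrombomodulin (Thbd, 5.70) and Car4 (6.48) among those higher, genes that neutrophils, monocytes or other cells can also express. Gimap4 (1.70, edgeR adjusted p = 0.0023) and Fli1 (1.35, edgeR adjusted p = 0.0079), both expressed by lymphocytes as well, were among those higher with exoCDN2, in tumors where T cell genes summed to 44.5 to 56.0 CPM against 5.94 to 6.26 CPM in PBS. The part of those cells was not tested.

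Calls are given for some of the lists of other cell types. After 1 dose of exoCDN2 against unloaded EVs, 12 of 12 interferon genes rose, 1 of 12 mural genes fell and 1 of 8 T cell genes rose, where 2.52% of all genes were higher and 0.425% lower. After 2 doses of CDN2 (20 µg) against PBS, 12 of 12 interferon, 8 of 8 neutrophil, 6 of 7 platelet, 7 of 10 fibroblast, 5 of 8 skeletal muscle and 4 of 12 mural genes rose, and 6 of 10 melanocyte genes fell, where 20% of all genes were higher and 10.6% lower. T cell genes were also higher there, at a summed 19.7 to 22.6 CPM against 5.94 to 6.26 CPM in PBS. Macrophage genes were at 596 to 1061 CPM against 259 to 308 CPM. Of the neutrophil genes 6 would pass the filter in the PBS and EV tumors alone, and all 6 rose, and of the platelet genes 3 would, and all 3 rose. Camp, 1 of the other neutrophil genes, was at 0 in both PBS tumors after 2 doses. Without CDN2 replicate 1 the counts that rose were 12 interferon, 8 neutrophil, 5 platelet, 4 fibroblast, 3 skeletal muscle and 4 mural genes, with 4 melanocyte genes lower. Without replicate 2 they were 12, 8, 7, 6, 5 and 5, with 9 melanocyte genes lower. These counts with a tumor left out were added after the data were seen. With exoCDN2 against PBS after 2 doses, 12 of 12 interferon, 7 of 8 T cell, 6 of 8 neutrophil, 5 of 10 macrophage and 2 of 10 fibroblast genes rose, and 0 of 12 mural genes were called, where 8.87% of all genes were higher.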

How the data were processed

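RNA of 18 whole B16F10 tumors was sequenced by the authors, who filtered the reads, aligned them to GRCm38 in OmicSoft ArraySuite, estimated expected counts per gene with RSEM and deposited these expected counts without normalization. The kit's strand was not used here, so overlapping and antisense genes, and close paralogs, are uncertain. Symbols came from GENCODE M21 (50376 of 50600 identifiers).

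The counts were rounded, filtered (filterByExpr, minimum count 10, minimum total 15), scaled by the trimmed mean of M values and fitted in edgeR 4.0.16 (limma 3.58.1, R 4.3.3) by the quasi-likelihood test, with 1 term per group, 16 tumors, 8 groups, 8 residual degrees of freedom and a common biological coefficient of variation of 0.220. The 2 tumors given CDN2 of unlabelled amount entered only a fit of all 18 tumors, which tested 17110 genes. No sample column was left unused. Log2 differences are edgeR estimates, each ± its standard error, and intervals are 95%. The exact permutation test of 2 against 2 tumors cannot go below a two-sided p of 0.333 and was not used.

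The 40 genes, the other lists and the tests were chosen with earlier results of these data known. Genes were named by a fixed rule (the most abundant gene of each role, Sox17 and Fgd5, and the 3 called genes each way with the smallest p in each comparison apart from the choice of the list). Clec14a, Cdh5, Apln and other genes outside it were chosen after their values were seen. Alternatives were DESeq2 1.42.0, RLE factors, no filter, no ratio limit, only the groups compared, all 18 tumors, a replicate block, pooled PBS, unloaded EVs as control and each tumor left out. Leaving out tumors for the other lists was added after seeing the data. In simulated data for exoCDN2 against PBS after 2 doses (16391 genes), 98 of 100 genes changed 4-fold and 62 of 100 changed 2.5-fold were called, as were 11 unchanged genes, and 0 in a comparison with no change. P-values rest on a spread between tumors of a group that was estimated over all groups of a fit, with 2 tumors each. After 2 doses of CDN2 (20 µg), 17.4% of genes were over 2-fold apart between the 2 tumors, against at most 4.24% in other groups. The shared estimate can therefore understate the spread of that group.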

Additional observations from a re-analysis of the deposited data

Results flagged for a closer look

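The effect of exoCDN2 against PBS differed between 2 doses and 1 for Cldn5, by 3.27 on the log2 scale, and for Icam2, by 1.84, each with an adjusted p of 0.0069 in edgeR's quasi-likelihood test of the difference itself. For Cldn5 the difference from PBS was -2.56 after 1 dose and 0.71 after 2, and for Icam2 it was -0.64 and 1.20. Both genes were also lower in PBS tumors after 2 doses than after 1, by -0.78 and -0.87, and neither of those differences was called.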

How the results depend on the processing

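With 2 tumors per group, the counts of members called moved with most choices, and the causes were not tested. DESeq2 called 4 genes lower for exoCDN2 against unloaded EVs (0 in edgeR), 1 lower for exoCDN2 against PBS after 2 doses (0), 5 lower for exoCDN2 against PBS after 1 dose (2), 2 lower for CDN2 (100 µg) (1), 1 lower for PBS between dose numbers (0) and 2 higher for CDN2 of unlabelled amount (0). Without the filter on low counts these 6 counts were 5, 1, 5, 3, 1 and 2, the exoCDN2 against CDN2 (20 µg) counts were 8 higher and 0 lower, and the difference between dose numbers gave 6 higher and 1 lower. Without the ratio limit, 2 genes were higher for exoCDN2 against PBS after 2 doses and 2 lower for exoCDN2 against CDN2 (20 µg).

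Fitting only the groups compared gave 1 higher for CDN2 of unlabelled amount, 3 lower for exoCDN2 against unloaded EVs, 1 lower and 0 higher for CDN2 (20 µg) after 2 doses, 1 lower for exoCDN2 after 2 doses, 0 lower and 0 higher for exoCDN2 against CDN2 (20 µg), 6 lower for exoCDN2 after 1 dose, 3 lower and 1 higher for CDN2 (100 µg), and 1 lower and 4 higher for the difference between dose numbers. Pooled PBS gave 1 higher for CDN2 (20 µg) and 0 for exoCDN2 after 2 doses, and 4 lower for exoCDN2 and 2 for CDN2 (100 µg) after 1 dose. With unloaded EVs in place of PBS, CDN2 (100 µg) had 1 higher. All 18 tumors gave 1 lower for PBS between dose numbers.

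Same-numbered tumors did not deviate together (correlations -0.158 to 0.371), so numbers were not taken as pairs. The replicate block left 1 gene lower (Cldn5, without Apln) for exoCDN2 against PBS after 1 dose, ended the Cldn5 call for CDN2 (20 µg) after 2 doses, and changed no other call of a member.

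Where 1 tumor was left out, the lone tumor was assumed to vary like the other groups. This gave 3 to 12 lower and 2 to 3 higher for CDN2 (20 µg) after 2 doses, 1 to 12 higher and 0 to 1 lower for exoCDN2 against CDN2 (20 µg), 0 to 2 higher for exoCDN2 after 2 doses and for CDN2 of unlabelled amount, 0 to 1 higher for exoCDN2 against unloaded EVs, 0 to 2 higher for exoCDN2 between dose numbers, 0 to 1 lower for exoCDN2 and 1 to 2 for CDN2 (100 µg) after 1 dose, and 0 to 2 lower for PBS between dose numbers.

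Medians over the members near 0 changed sign. For CDN2 (20 µg) after 2 doses the median was 0.0025 with RLE factors and -0.37 to 0.069 with 1 tumor left out. For exoCDN2 after 2 doses it was -0.032 with pooled PBS and -0.11 to 0.20 with 1 tumor left out. For CDN2 (100 µg) against unloaded EVs it was 0.13. With 1 tumor left out, it was -0.16 to 0.17 for exoCDN2 against unloaded EVs and -0.082 to 0.0092 for PBS between dose numbers.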
